A study of Mus musculus with 16 samples.

Results

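The genes described here are 8 markers of peripheral nerve, measured in mouse dorsal skin: Mbp, Pmp22, Prx and Mag of the myelin sheath, Ngfr, Gfra3 and S100b of Schwann cells, and Cntnap2 of the axon. They were chosen from markers with earlier results of the same arrays known, their differences between day 0 and day 5 among them, so their values are a description and not independent support for any direction. Probe sets were taken where the platform annotation gives exactly 1 of these symbols, and the probe set with the highest mean over all 16 arrays stood for its gene. Of the 8 genes, 7 had such a probe set, with 19 probe sets between them, and 5 passed the filter on low values, out of 18194 genes on the array with a probe set of 1 symbol and 12087 genes tested. Prx is not analysed here. Mag and Gfra3 stayed below the filter, which asked for a log2 value over 4 on at least 2 arrays.

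Whole skin biopsies came from 9 female mice, written C57/B6 in most labels and C57/B7 in the titles, aged 8.5 weeks at the first biopsy. Day 0 holds 9 arrays of untreated skin. On day 5, after 4 days of daily topical application, a second biopsy of the treated skin was taken from 2 mice given DMSO as vehicle (mice 2 and 3), 2 given ruxolitinib (mice 4 and 6) and 3 given tofacitinib (mice 7, 8 and 9). Ruxolitinib and tofacitinib are inhibitors of the Janus kinases, which pass signals from cytokine receptors into the cell. Every day-5 group shares the repeat biopsy, the handling and the 5 days between biopsies, so these cannot be told apart from DMSO in a comparison with day 0. No dose is given in the sources used here, and the mice are separate animals, so the spread is between mice. For mouse 7 at day 5 the title and treatment label give tofacitinib and the free-text description gives ruxolitinib, and the array was kept as tofacitinib.

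Schwann cells ensheath the axons of peripheral nerves and wrap the larger ones in myelin, a stack of membrane held together by proteins such as Mbp on its inner face and Pmp22 within it. Mag sits on the inner myelin membrane facing the axon and binds it. S100b is a calcium-binding protein long used to mark Schwann cells, Ngfr is the low-affinity neurotrophin receptor of immature and non-myelinating Schwann cells, and Gfra3 is the co-receptor through which Ret binds the growth factor artemin. Cntnap2, also called Caspr2, is an axonal membrane protein that lies beside the node, under the myelin, where with its partner Cntn2 it gathers the potassium channels Kcna1 and Kcna2. In skin, Ngfr is also known in hair follicle keratinocytes, and a whole biopsy holds cut nerve bundles whose neuron cell bodies lie elsewhere.

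The promoter table gave 12 start sites for 6 of the genes, Cntnap2, Prx, Mag, S100b, Pmp22 and Ngfr, with sequences from RefSeq on GRCm38.p6. The 250 bases upstream of each start were searched on both strands for the core letters ACAAAG or ACAATG of SOX factors, the family of the Schwann cell regulator Sox10, and for the core letters GTGGGCG of EGR factors, the family of the myelin regulator Egr2. The sequences below show both Cntnap2 starts, because Cntnap2 had the largest rise of the members in each day-5 group, with S100b, the member whose profile over the 16 arrays was most like it, and 1 Mag start as a myelin gene with a match. Capitals mark a SOX core on the opposite strand, and all other letters are unmatched upstream sequence written 5′ to 3′ on the strand of the gene.
Cntnap2, first start, chr6:45059811-45060060, plus strand: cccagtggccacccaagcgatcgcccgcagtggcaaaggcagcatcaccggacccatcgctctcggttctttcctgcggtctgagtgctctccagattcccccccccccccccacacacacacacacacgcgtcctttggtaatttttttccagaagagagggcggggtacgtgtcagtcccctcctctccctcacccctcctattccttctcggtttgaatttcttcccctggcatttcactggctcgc
Cntnap2, second start, chr6:47244146-47244395, plus strand: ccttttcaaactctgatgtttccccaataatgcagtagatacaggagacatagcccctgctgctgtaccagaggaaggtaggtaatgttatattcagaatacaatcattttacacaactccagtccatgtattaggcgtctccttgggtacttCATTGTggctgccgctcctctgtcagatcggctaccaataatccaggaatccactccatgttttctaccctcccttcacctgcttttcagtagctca
S100b, chr10:76253586-76253835, plus strand: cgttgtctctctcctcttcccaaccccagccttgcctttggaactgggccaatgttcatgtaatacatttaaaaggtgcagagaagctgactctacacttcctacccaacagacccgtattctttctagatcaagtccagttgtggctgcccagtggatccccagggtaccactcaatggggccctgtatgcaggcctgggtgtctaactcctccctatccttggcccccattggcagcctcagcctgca
Mag, chr7:30914864-30915113, minus strand: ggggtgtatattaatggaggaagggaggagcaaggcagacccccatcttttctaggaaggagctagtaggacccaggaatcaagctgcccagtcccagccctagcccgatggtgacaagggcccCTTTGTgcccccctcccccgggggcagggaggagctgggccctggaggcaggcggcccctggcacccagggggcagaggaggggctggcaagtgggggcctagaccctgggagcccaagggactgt
The first Cntnap2 window and the S100b window held neither set of letters, the second Cntnap2 window held ACAATG and the Mag window ACAAAG. A SOX core was found in 3 of the 12 windows (2 overlapping Mag windows share theirs), against 25.2% of all 32851 windows in the table. An EGR core was found in 0 of 12, against 7.02% of all windows. These matches are letters only and say nothing of binding.

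All array values below are log2 expression values as deposited, and a difference of 1 is a 2-fold difference. As a gauge of background, 27 control probe sets with no target gave a median of 1.70 and reached 2.43. In a whole biopsy, fewer cells of a type and less RNA per cell cannot be told apart. Where the arrays of 2 groups are said not to overlap, the share of all genes that do so was not counted. Differences with a standard error come from 1 limma fit over all 16 arrays in which mouse was a random block, with p-values adjusted by the Benjamini-Hochberg method over all 12087 genes, and a gene passed at an adjusted p under 0.05.

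Cntnap2 lay close to background before treatment and rose in every day-5 group, most with DMSO. At day 0 its values ran from 2.22 to 3.21 with a median of 2.54, and 2 of 9 arrays were no higher than the highest control probe set. With DMSO it reached 7.42 in mouse 2 and 7.09 in mouse 3. With ruxolitinib it was 5.12 in mouse 4 and 4.86 in mouse 6. With tofacitinib it was 4.82 in mouse 7, 6.21 in mouse 8 and 5.36 in mouse 9. No day-5 array overlapped day 0, both DMSO arrays lay above all 5 inhibitor arrays, and the ruxolitinib and tofacitinib arrays overlapped. The share of all genes with such separations was not counted. The fitted differences from day 0 were 4.65 ± 0.28 (SE, adjusted p = 1.25e-07, 25.0-fold) with DMSO, 2.38 ± 0.28 (adjusted p = 3.52e-05) with ruxolitinib and 2.88 ± 0.24 (adjusted p = 9.78e-07) with tofacitinib. Because every day-0 array lay under the filter, Cntnap2 could only be tested by being higher at day 5, and because the day-0 values are near background, the size of the fold is uncertain. The other Cntnap2 probe sets stayed near background, reaching at most 2.55 and 1.94, and both were higher at day 5 in 7 of 7 mice, by a median of 0.31 and 0.20.

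**Figure D1:**
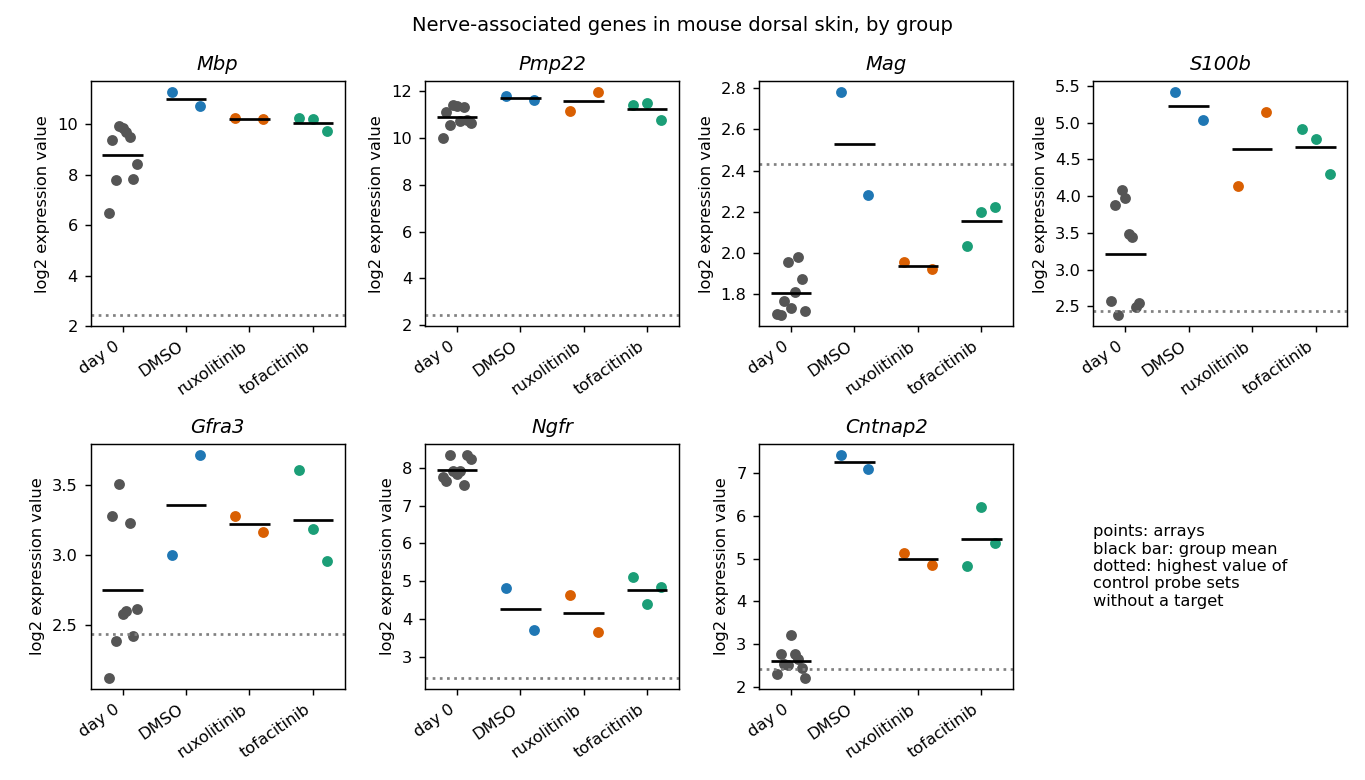
Log2 expression value of each of the 7 measured genes (vertical axes, each with its own scale) on the 16 arrays by group, with points for arrays, black bars for group means and a dotted line at the highest control probe set, 2.43. Cntnap2 sits near that line at day 0 and between 4.82 and 7.42 at day 5, while Ngfr runs the other way.

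Mbp, the main protein that compacts myelin, was already well above background at day 0 and was higher at day 5, with a wide spread before treatment. At day 0 it ran from 6.47 to 9.93 with a median of 9.38. The DMSO arrays read 11.26 and 10.71 in mice 2 and 3, the ruxolitinib arrays 10.22 and 10.21 in mice 4 and 6, and the tofacitinib arrays 10.25, 10.20 and 9.73 in mice 7, 8 and 9. The DMSO and ruxolitinib arrays all lay above every day-0 array, and the tofacitinib array of mouse 9 fell inside the day-0 range. Against day 0, Mbp rose by 2.24 ± 0.69 (SE, adjusted p = 0.0140) with DMSO. The differences of 1.35 ± 0.69 (adjusted p = 0.139) with ruxolitinib and 1.32 ± 0.58 (adjusted p = 0.0718) with tofacitinib did not pass. The DMSO call was lost without mouse 2 (adjusted p = 0.147) or mouse 3 (adjusted p = 0.0627), and the tofacitinib difference passed when mouse was a fixed block (1.48, adjusted p = 0.0141).

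Mbp has 8 probe sets, and they did not move together. Of the 6 that passed the filter, 5 were higher at day 5 in 7 of 7 mice, the one described above included. The exception, 1425264_s_at, was lower at day 5 in 7 of 7 mice, running from 8.94 to 9.79 at day 0 and reading 7.83 and 8.11 with DMSO, 7.44 and 7.85 with ruxolitinib, and 8.19, 7.36 and 8.63 with tofacitinib, with no overlap between day 0 and day 5. In a fit on probe sets it fell by 1.33 (adjusted p = 0.00108), 1.64 (adjusted p = 0.000364) and 1.25 (adjusted p = 0.000512) in the same 3 groups. The Mbp locus is known to give several transcripts, some from a longer unit also active outside myelin, and which transcripts each probe set reads was not tested. The remaining 1425263_a_at and 1451961_a_at stayed under the filter.

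**Figure D2:**
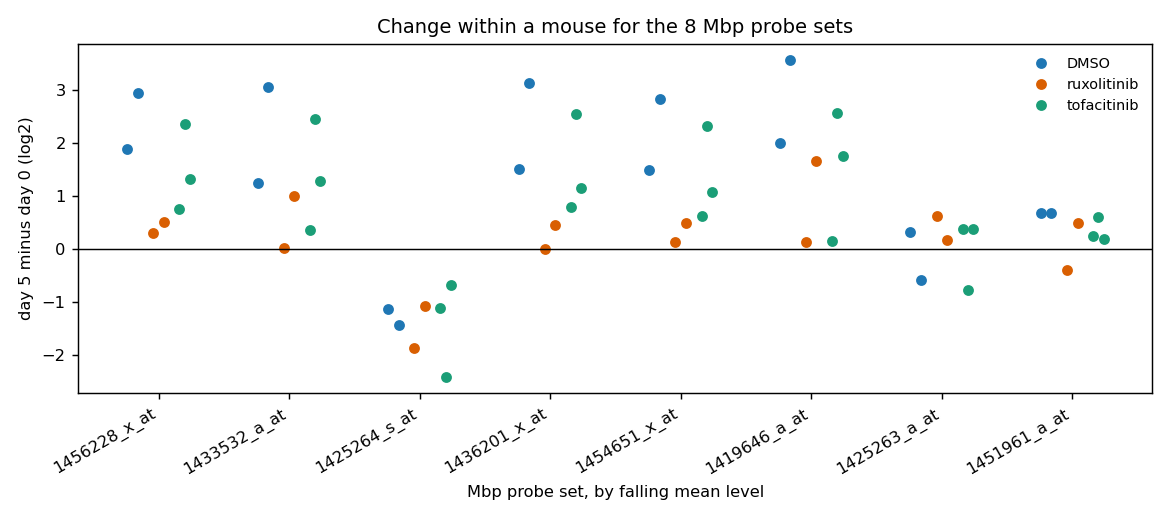
Day-5 minus day-0 log2 value within each of 7 mice (vertical axis) for the 8 Mbp probe sets (horizontal axis, ordered by falling mean level), coloured by treatment. The 5 other probe sets that passed the filter lie above 0 in all mice and 1425264_s_at lies below 0 in all mice, from -2.43 to -0.68.

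Pmp22, a protein of compact myelin whose dose is altered in inherited neuropathies and which other cells make too, had the smallest differences from day 0 of the 5 tested members. Its day-0 values ran from 9.97 to 11.37 with a median of 10.74. It read 11.77 and 11.59 with DMSO in mice 2 and 3, 11.15 and 11.94 with ruxolitinib in mice 4 and 6, and 11.38, 11.47 and 10.77 with tofacitinib in mice 7, 8 and 9. Only the DMSO arrays cleared the day-0 range, and the ruxolitinib array of mouse 4 was lower than the same mouse's day-0 array. The rise of 0.82 ± 0.32 (SE) with DMSO passed narrowly (adjusted p = 0.0425), and the differences with ruxolitinib, 0.66 ± 0.32 (adjusted p = 0.118), and tofacitinib, 0.34 ± 0.27 (adjusted p = 0.311), did not. The DMSO call was lost when mouse was a fixed block (adjusted p = 0.0978), without mouse 2 (adjusted p = 0.234) or mouse 3 (adjusted p = 0.129), without the filter (adjusted p = 0.0563) and after quantile normalization (adjusted p = 0.0515).

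Mag, the adhesion protein between myelin and axon, was at background on all but 1 array. Its day-0 values ran from 1.70 to 1.98 with a median of 1.77, all under the highest control probe set. With DMSO it read 2.78 in mouse 2 and 2.28 in mouse 3, with ruxolitinib 1.96 and 1.92 in mice 4 and 6, and with tofacitinib 2.04, 2.20 and 2.22 in mice 7, 8 and 9. The DMSO array of mouse 2 alone stood above the control probe sets, so a level of Mag cannot be given at day 0. It was higher at day 5 in 7 of 7 mice, and fitted with limma without the filter its differences from day 0 were 0.73 (adjusted p = 0.000340) with DMSO, 0.13 (adjusted p = 0.466) with ruxolitinib and 0.34 (adjusted p = 0.0152) with tofacitinib. These differences lie within the range of the control probe sets on all but that array, so no fold is given.

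S100b was low at day 0 and higher at day 5 in 7 of 7 mice. Day 0 ran from 2.38 to 4.09 with a median of 3.45. It read 5.41 and 5.03 with DMSO in mice 2 and 3, 4.14 and 5.15 with ruxolitinib in mice 4 and 6, and 4.91, 4.77 and 4.30 with tofacitinib in mice 7, 8 and 9. All 7 day-5 arrays lay above day 0, but mouse 4 by only 0.06 over its own first biopsy. The share of all genes with such a separation was not counted. The rises were 2.02 ± 0.44 (SE, adjusted p = 0.00182), 1.38 ± 0.44 (adjusted p = 0.0248) and 1.49 ± 0.37 (adjusted p = 0.00460) with DMSO, ruxolitinib and tofacitinib. Only 1 day-0 array passed the value of 4 that the filter uses, so S100b too was tested mainly through its day-5 arrays. The ruxolitinib call was lost without mouse 6 (adjusted p = 0.359) and when mouse was a fixed block (adjusted p = 0.226). The second S100b probe set rose by 0.88 with ruxolitinib (adjusted p = 0.0393) and gave 0.62 with DMSO (adjusted p = 0.109) and 0.63 with tofacitinib (adjusted p = 0.0564).

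Gfra3 stayed between 2.12 and 3.71 on the 16 arrays. Its day-0 median was 2.59, and it read 3.0 and 3.71 with DMSO, 3.28 and 3.16 with ruxolitinib, and 3.60, 3.18 and 2.96 with tofacitinib. It was higher at day 5 in 5 of 7 mice, and the groups overlapped. Fitted without the filter, its differences from day 0 were 0.60, 0.45 and 0.50 (adjusted p = 0.144, 0.317 and 0.150) in the same order.

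Ngfr fell steeply in every day-5 group, while S100b rose. At day 0 it ran from 7.55 to 8.34 with a median of 7.91. With DMSO it read 4.81 in mouse 2 and 3.69 in mouse 3, with ruxolitinib 4.64 in mouse 4 and 3.65 in mouse 6, and with tofacitinib 5.10, 4.38 and 4.84 in mice 7, 8 and 9. Every day-5 array lay below every day-0 array, a separation whose share over all genes was not counted, and the day-5 groups overlapped. It fell by 3.71 ± 0.31 (SE, adjusted p = 1.13e-06, 13.0-fold) with DMSO, it fell by 3.80 ± 0.31 (adjusted p = 1.87e-06) with ruxolitinib, and it fell by 3.19 ± 0.26 (adjusted p = 9.04e-07) with tofacitinib. The other Ngfr probe sets, at most 2.55 and 2.50, were near background. Beside this, the list of basal and outer root sheath keratinocyte genes had 9 of 11 tested genes lower with DMSO, 9 of 11 with ruxolitinib and 10 of 11 with tofacitinib. Over all tested genes 28.9%, 21.4% and 27.4% were lower, in the same order. The mean level of the list fell from between 10.92 and 11.24 at day 0 to between 10.15 and 10.53 at day 5. The part of keratinocytes in the Ngfr result was not tested.

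**Figure D3:**
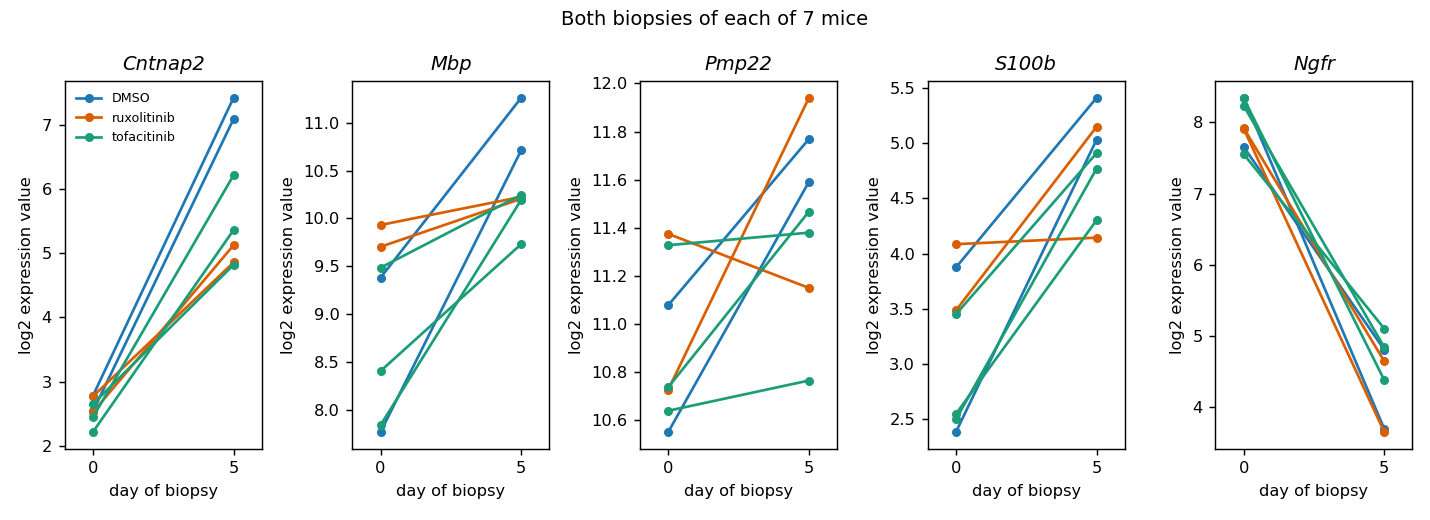
Log2 expression value at day 0 and day 5 (horizontal axis, day of biopsy) of Cntnap2, Mbp, Pmp22, S100b and Ngfr in each of the 7 mice with both biopsies, 1 line per mouse coloured by treatment. Cntnap2, Mbp and S100b rise in 7 of 7 mice, Pmp22 in 6 of 7, and Ngfr falls in 7 of 7.

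Of the 5 tested members, 5 passed with DMSO against day 0 (4 higher and 1 lower), beside 51.1% of all tested genes, of which 22.2% of the genes tested were higher and 28.9% lower. With ruxolitinib 3 of 5 passed, Cntnap2 and S100b higher and Ngfr lower, beside 34.0% of all tested genes (12.5% higher, 21.4% lower). With tofacitinib the same 3 genes passed in the same directions, beside 50.1% (22.7% higher, 27.4% lower). Since a large share of all genes passed and several members could be tested only because they were high at day 5, nothing about the members as a set is read from these counts. When mouse was a fixed block the counts were 4, 2 and 4. The 3 comparisons share the day-0 arrays.

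The inhibitor groups were then compared with DMSO at day 5, which asks whether the inhibitors changed these genes beyond the repeat biopsy. Cntnap2 was lower with ruxolitinib than with DMSO by 2.26 ± 0.36 (SE) on the log2 scale, 4.80-fold (adjusted p = 0.0180), and was the 1 member of 5 to pass, beside 0.521% of all tested genes (0.405% higher, 0.116% lower). With tofacitinib it was lower by 1.77 ± 0.33, which did not pass (adjusted p = 0.0506), so that 0 of 5 members passed in limma, beside 0.165% of all genes. At an unadjusted p under 0.05 that comparison gave 1015 genes, Cntnap2 among them. The mean of both inhibitors was lower than DMSO by 2.02 ± 0.31 (adjusted p = 0.00823), beside 0.935% of all genes (0.836% higher, 0.0993% lower), and Cntnap2 was 1 of 12 genes lower there. Tofacitinib and ruxolitinib differed by 0.49 ± 0.33 for Cntnap2 (adjusted p = 0.912, 95% interval -0.22 to 1.20), with 0 of 5 members passing in limma, beside 0.0248% of all genes and 685 genes at an unadjusted p under 0.05. These calls rest on 2 DMSO mice. Against ruxolitinib the call was lost without any 1 of the 4 mice compared, DMSO 2 and 3 or ruxolitinib 4 and 6 (adjusted p from 0.0525 to 0.125), in a fit of those groups alone (0.0774) and when mouse was a fixed block (0.248). For the mean of both inhibitors it was lost without DMSO mouse 2 (adjusted p = 0.141) or 3 (0.0514), in a fit of the day-5 groups alone (0.113) and with the fixed block (0.444), while the tofacitinib difference passed without mouse 8 (adjusted p = 0.0181) or mouse 9 (0.0442) and without a block (0.0447). In each of these settings Cntnap2 remained lower with the inhibitors.

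The other 4 tested members did not pass between the inhibitors and DMSO. The mean of both inhibitors minus DMSO was -0.91 ± 0.75 for Mbp (SE, adjusted p = 0.618, 95% interval -2.51 to 0.69), -0.32 ± 0.35 for Pmp22 (adjusted p = 0.706, interval -1.06 to 0.42), -0.59 ± 0.48 for S100b (adjusted p = 0.617, interval -1.61 to 0.44) and 0.21 ± 0.34 for Ngfr (adjusted p = 0.802, interval -0.50 to 0.93). For Mbp both DMSO arrays lay above all 5 inhibitor arrays. With so few arrays this is no evidence of a difference, and the share of all genes that do so was not counted. The intervals of Mbp and S100b reach past a 2-fold fall, so a smaller inhibitor difference in these genes than in Cntnap2 was not shown, and the difference between genes was not tested.

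**Figure D4:**
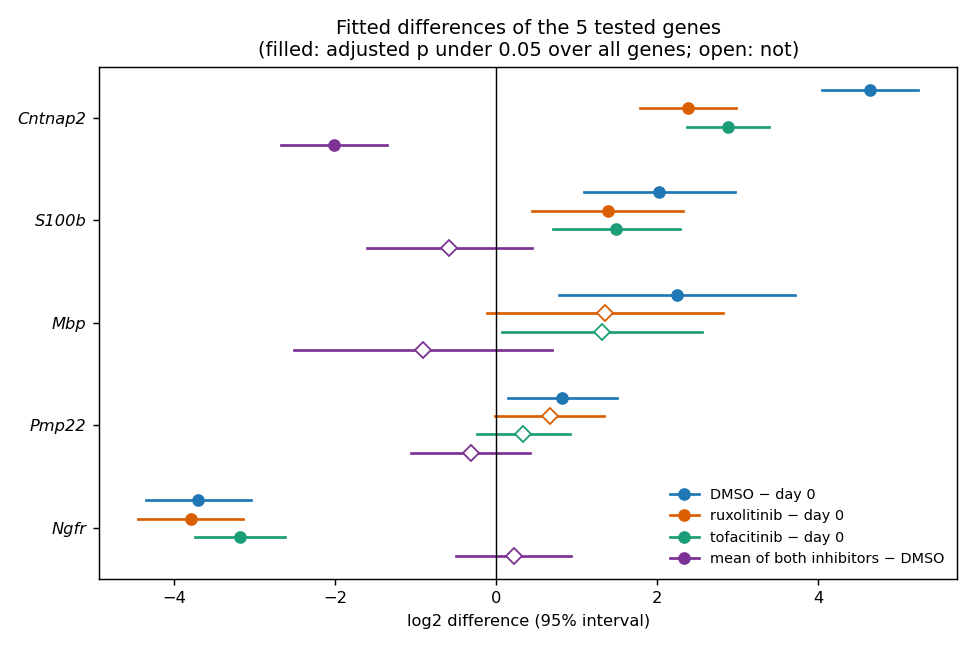
Fitted log2 differences (horizontal axis) with 95% intervals for the 5 tested genes: DMSO, ruxolitinib and tofacitinib against day 0, and the mean of both inhibitors against DMSO. Filled circles passed at an adjusted p under 0.05 and open diamonds did not; Cntnap2 is the only gene whose interval for inhibitors against DMSO, -2.67 to -1.36, excludes 0.

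Whether Cntnap2 follows the myelin genes was described by change, by correlation within a day and by likeness of profile. Within each mouse the day-5 value of Cntnap2 exceeded day 0 by 2.09 to 4.64, a larger rise than that of any of the other 6 measured members in 7 of 7 mice, while the fall of Ngfr was larger in size than the rise of Cntnap2 in 6 of 7 mice. In mouse 4 Cntnap2 rose by 2.60 while Mbp rose by 0.29, and in mouse 8 they rose by 3.77 and 2.35. At day 0, over 9 arrays, Cntnap2 spanned 1.0 and Mbp 3.46. The day-0 Pearson correlation of Cntnap2 was 0.67 with Mbp (exact permutation p = 0.0460, adjusted p = 0.138; Spearman 0.55, p = 0.133, adjusted p = 0.485) and 0.71 with S100b (exact permutation p = 0.0259, adjusted p = 0.114; Spearman 0.55, p = 0.133, adjusted p = 0.485). Without the 2 arrays farthest from the Cntnap2 median these were 0.80 and 0.63. At day 5, over 7 arrays, the correlation with Mbp was 0.79 (exact permutation p = 0.0286, adjusted p = 0.114; Spearman 0.36, p = 0.444, adjusted p = 0.778), and without the 2 arrays farthest from the median, both DMSO, it was -0.14, so it rests on those arrays. The permutations ran over all arrays of a day without regard to treatment, so at day 5 differences between treatment groups enter the correlations and their p-values. The tests were two-sided, adjusted over the 12 correlations of Cntnap2 with 6 members on 2 days. Of the 12, 1 passed, with Mag at day 5 (Pearson 0.86, exact permutation p = 0.00238, adjusted p = 0.0286; Spearman 0.86, p = 0.0238, adjusted p = 0.286; 0.73 without the 2 arrays), but Mag was at background on all but 1 of these arrays. Cntnap2 and Mag were also both highest on the 2 DMSO arrays, so the p-value with Mag is no test of a link apart from treatment. Day 0 and day 5 form separate clusters for Cntnap2, so no correlation was taken over both.

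**Figure D5:**
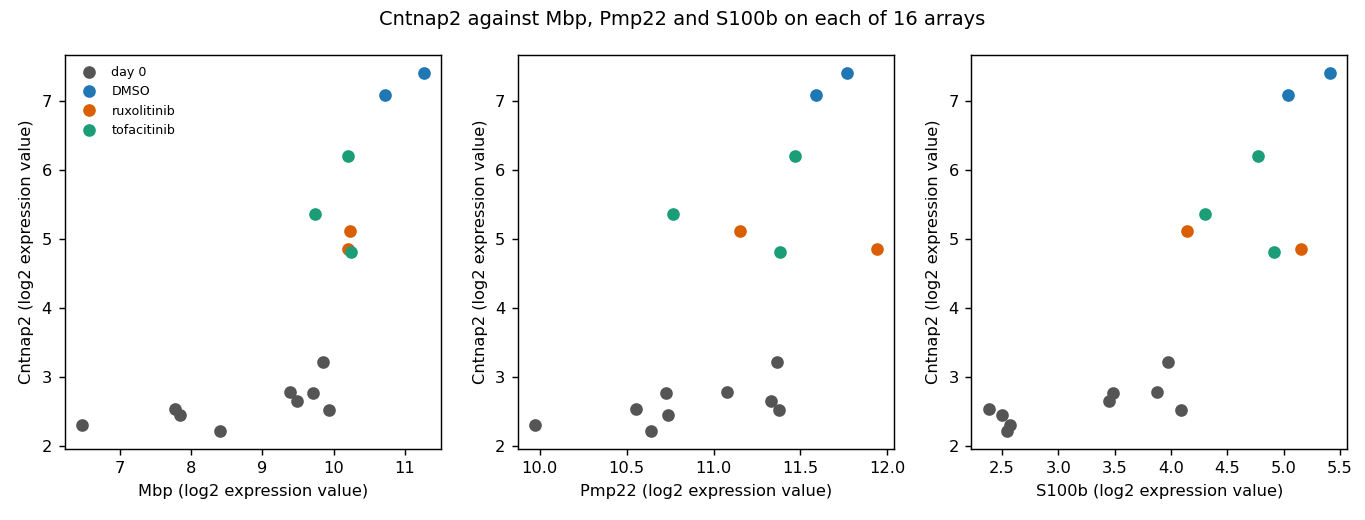
Cntnap2 (vertical axes, log2 expression value) against Mbp, Pmp22 and S100b (horizontal axes, log2 expression value) on each of the 16 arrays, coloured by group. The day-0 arrays run along the bottom, with Cntnap2 from 2.22 to 3.21 while Mbp goes from 6.47 to 9.93, and the day-5 arrays stand above them.

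Likeness was measured as the root mean square difference between 2 profiles over the 16 arrays, each centred on its own mean, and genes were ranked over all tested genes. From Cntnap2, S100b stood at rank 290 of 12086 (distance 1.06), Mbp at rank 607 (1.18), Pmp22 at rank 2056 (1.48) and Ngfr at rank 12052 (3.46). From the mean profile of Mbp and Pmp22, S100b stood at rank 128 of 12085 (0.41) and Cntnap2 at rank 10552 (1.28). Thus, on this measure, S100b was among the genes nearest to the myelin genes, while Cntnap2 was farther from their mean than most genes. The profiles were not scaled, so a difference in the size of a rise counts as distance. The ranks therefore do not tell size from pattern, and do not show that Cntnap2 moves otherwise than the myelin genes. The order changed with the arrays used: over the 9 day-0 arrays alone Cntnap2 ranked 1936 from the myelin mean, and over the 7 day-5 arrays 11495. From Cntnap2, the 7 day-5 arrays alone put Mbp at rank 223 and S100b at 1468, and the 9 day-0 arrays alone put them at 11936 and 9561. The 5 genes nearest to Cntnap2 were Prima1, which anchors acetylcholinesterase in the membrane (distance 0.48), Frzb, a secreted Wnt antagonist (0.56), the matricellular protein Ccn3 (0.67), the potassium channel Kcnc4 (0.67) and Enho, a secreted peptide (0.69). Genes chosen for this likeness had to be high at day 5, so their differences are a description with no test. They were 4.18, 3.99, 3.26, 4.37 and 2.86 with DMSO against day 0 in that order, and -1.17, -1.42, -1.34, -0.91 and -0.56 for the mean of both inhibitors minus DMSO. The 5 nearest to the mean of Mbp and Pmp22 were Grb10, an adaptor at growth factor receptors (distance 0.25), Fgd5 (0.28), the myelin enzyme Cnp (0.28), Ecscr (0.29) and Hip1 (0.29). Fgd5 and Ecscr are known from endothelial cells. Their differences from day 0 with DMSO, again fixed in direction by the choice, were 1.17, 1.10, 1.89, 1.26 and 1.24.

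The spread of Mbp before treatment ran with that of some other tissue genes and not with that of others. The 4 lowest day-0 arrays for Mbp, those of mice 1, 3, 8 and 9, were also the 4 lowest for S100b, for the myelin genes Cnp, Mal and Drp2, for Sox10, and for the mean levels of the adipocyte, smooth muscle, skeletal muscle, endothelial and melanocyte lists. The adipocyte list mean ran from 6.52 to 9.92 and that of smooth muscle from 5.24 to 8.55 across day 0. Some genes and lists shared fewer of mice 1, 3, 8 and 9 among their 4 lowest. Pmp22, Ncmap, Fa2h and Cntnap2 shared 3, the fibroblast list mean 2, and Ndrg1, Mtmr2 and Gal3st1 1 each. The keratinocyte list mean and the Langerhans cell and macrophage list mean also shared 1. A further fit kept only the day-0 arrays of mice 2, 4, 5, 6 and 7, a choice made after seeing the data. It left out the 4 arrays lowest for Mbp and S100b, so their narrower day-0 spread and smaller rises follow from the choice. The p-values and calls of these genes in this fit are therefore no support. It also left out the first biopsies of mice 3, 8 and 9, which have a day-5 array. In this fit Mbp rose with DMSO by 1.39 (adjusted p = 0.000417). It gave 0.53 with ruxolitinib (adjusted p = 0.0627) and 0.44 with tofacitinib (adjusted p = 0.0808). Pmp22 then no longer passed with DMSO (0.53, adjusted p = 0.125), S100b rose by 1.47, 0.89 and 0.95 in the 3 groups, and Cntnap2 by 4.45, 2.22 and 2.65. The members passing numbered 4, 3 and 3 of 5, beside 43.6%, 32.4% and 38.6% of the 11975 genes tested in that fit. The same 4 day-0 arrays had the largest differences between the 3′ and 5′ Gapdh control probe sets, 1.47, 1.02, 0.98 and 1.06 in mice 1, 3, 8 and 9. In mice 2, 4, 5, 6 and 7 the day-0 differences were 0.82, 0.87, 0.87, 0.92 and 0.91, and the day-5 arrays ran from 0.78 to 0.98. For Actb the same difference did not separate them, at 2.09, 1.67, 1.98 and 1.82 in mice 1, 3, 8 and 9, against 1.65 to 2.03 in mice 2, 4, 5, 6 and 7. The part of RNA quality in the day-0 spread was not tested.

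Other genes of myelin structure and lipid gave 8 higher and 4 lower of 13 tested with DMSO, 2 and 3 with ruxolitinib, and 3 and 4 with tofacitinib. Over all tested genes, 22.2% were higher and 28.9% lower with DMSO, 12.5% and 21.4% with ruxolitinib, and 22.7% and 27.4% with tofacitinib. The counts with the inhibitors lie near those shares, and nothing is read from them. The median differences of the list were 0.85, 0.63 and 0.16, against medians of -0.05, -0.03 and -0.02 over all tested genes. With DMSO, Mal rose by 2.16 (adjusted p = 0.0135), Drp2, which links the myelin membrane to the matrix with periaxin, by 2.37 (adjusted p = 0.00857), Ugt8a, the enzyme that makes myelin galactolipid, by 2.21 (adjusted p = 0.00586), and Cnp by 1.89 (adjusted p = 0.0140). Ncmap rose by 0.85, the scaffold protein Mpp6 by 1.68 and the stress-response gene Ndrg1, also abundant in keratinocytes, by 1.08. Every day-0 array of Ncmap lay under the filter (at most 3.91), so Ncmap could only be tested by being higher at day 5. Ugt8a reached only 4.06 at day 0, little over the filter value of 4. Both are among the 8 counted as higher. Gal3st1, which sulfates the same galactolipid, fell by 1.92 (adjusted p = 3.16e-05), the phosphatase Mtmr2 by 0.36 (adjusted p = 0.0377), and Fa2h, a lipid hydroxylase, gave -0.15 (adjusted p = 0.658). Mpp6 and Ndrg1 were the 2 that rose with ruxolitinib (1.29 and 0.69), and they and Cnp (1.28) were the 3 that rose with tofacitinib. The 3 that fell with ruxolitinib and the 4 that fell with tofacitinib are not named here, and with DMSO only some of the 4 that fell are. The named genes therefore lean to the rises and do not stand for the list. Mal, at 1.70 with ruxolitinib (adjusted p = 0.0580) and 0.75 with tofacitinib (adjusted p = 0.277), did not pass there. Without DMSO mouse 2, and also without DMSO mouse 3, the DMSO calls of Mal, Drp2, Cnp and Mtmr2 were lost, and those of Ugt8a and Ncmap were lost without mouse 2. The tofacitinib call of Cnp was lost in 6 of 12 alternatives, among them without any 1 of the 3 tofacitinib mice. The ruxolitinib calls were lost without mouse 6 for Mpp6 and without mouse 4 for Ndrg1.

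Among 10 transcription factors known in Schwann cells, 1 was higher and 5 lower with DMSO, 0 and 2 with ruxolitinib, and 1 and 3 with tofacitinib. The shares over all tested genes were 22.2% higher and 28.9% lower with DMSO, 12.5% and 21.4% with ruxolitinib, and 22.7% and 27.4% with tofacitinib. Beside these shares, nothing about so short a list is read from its counts. Sox10, which sets Schwann cell identity, gave 1.52 (adjusted p = 0.0585), 1.24 (adjusted p = 0.144) and 1.09 (adjusted p = 0.104). Pou3f1, which prepares Schwann cells for myelination and is also made by keratinocytes, fell by 1.91, 1.66 and 1.73 in the 3 groups, and Egr2, which drives myelin genes and is also active in hair follicles, fell by 0.86 with DMSO (adjusted p = 0.0178). Id2 fell by 0.74 and Tfap2a, a factor of both neural crest and epidermis, by 0.65 with DMSO. The Egr2 call was lost without DMSO mouse 3 (-0.49, adjusted p = 0.318), the Id2 call when either DMSO mouse was left out, and the Tfap2a call when mouse was a fixed block. Of 11 tested receptors and ligands, 3 were higher and 5 lower with DMSO, 3 and 4 with ruxolitinib, and 3 and 5 with tofacitinib. Beside the same shares over all genes, nothing about this list is read from its counts either. The neuregulin receptors Erbb2 and Erbb3, which epidermis also makes, fell by 2.32 and 1.16 with DMSO, and Erbb2 by 2.0 and 2.13 with the inhibitors. Adgrg6, a receptor needed for myelination, fell by 1.27 with DMSO, a call lost without mouse 2, and Sorl1 gave -0.10 (adjusted p = 0.587). Ret, the signalling partner of Gfra3, rose by 3.65, 2.79 and 1.93, while Gdnf, a ligand of Ret, fell by 2.75, 3.46 and 3.35, each past the threshold. At day 0 Ret ran only from 2.96 to 4.43, near the filter value of 4, so Ret too was tested mainly through its day-5 arrays.

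Genes of non-myelinating and repair Schwann cells gave 2 higher and 3 lower of 10 tested with DMSO, 3 and 1 with ruxolitinib, and 3 and 3 with tofacitinib. The shares over all tested genes were 22.2% and 28.9%, 12.5% and 21.4%, and 22.7% and 27.4% in the same order, so nothing is read from these counts. Cdh19, a cadherin of the Schwann cell lineage, rose by 2.81, 2.27 and 1.89 (adjusted p = 0.00464, 0.0224 and 0.0173), calls that were lost without DMSO mouse 3, when either ruxolitinib mouse was left out, and without tofacitinib mouse 7 or 8. Jun, which drives the repair state and is general in skin, rose by 0.68 with DMSO, but it gave 0.32 (adjusted p = 0.380) without mouse 2 and 1.06 (adjusted p = 0.0105) without mouse 3. L1cam, Sostdc1 and Sox4 fell by 0.96, 2.44 and 1.52 with DMSO. The glial sodium channel Scn7a gave 1.92, 2.05 and 1.68 (adjusted p = 0.0619, 0.0646 and 0.0552). In the comparison of the mean of both inhibitors with DMSO, 1 of these 10 passed, Shh, beside 0.935% of all tested genes. Shh is best known in skin from the growing hair follicle. Every day-0 array of Shh lay under the filter (at most 3.76), so it was tested only through its day-5 arrays. It was 3.23 higher with the inhibitors (adjusted p = 0.0412), a call that is a description and no independent support. That call was lost in 6 of 14 alternatives, among them when either DMSO mouse was left out.

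Of 24 genes of the axon, node and juxtaparanode, 6 passed the filter, and with DMSO 1 was higher and 2 lower, with each inhibitor 0 and 1. Over all tested genes, 22.2% were higher and 28.9% lower with DMSO, 12.5% and 21.4% with ruxolitinib, and 22.7% and 27.4% with tofacitinib. Nothing about the list is read from these counts. Nfasc, an adhesion protein of the node, rose by 1.76 with DMSO (adjusted p = 0.00532), while Epb41l3, which tethers Cntnap proteins to the cytoskeleton, fell by 1.5 and Nrcam by 1.10. Each of these 3 calls was lost without DMSO mouse 2. Kcna1, one of the channels gathered by Cntnap2, gave 1.63 with DMSO (adjusted p = 0.139), 0.97 with ruxolitinib and 0.82 with tofacitinib. Kcna2 gave 0.92 with DMSO (adjusted p = 0.0765), and Ank3 0.42 (adjusted p = 0.0520). Cntn2, the partner of Cntnap2, reached at most 2.10 on any array, below the highest control probe set, as did the neurofilament genes Nefl (2.29) and Nefm (2.27). Of the 18 genes of this list under the filter, 5 never rose above the control probe sets and 13 did on at least 1 array, the highest being Cntn1 (4.44), Stmn2 (3.61) and Uchl1 (3.56). Of the contactin-associated family, 4 members had a probe set, and Cntnap1, Cntnap4 and Cntnap5a reached at most 2.69, 1.90 and 1.99.

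Marker lists of other skin cells were read in the same comparisons, and their part in the members' results was not tested. Over all tested genes, 22.2%, 12.5% and 22.7% were higher with DMSO, ruxolitinib and tofacitinib against day 0, and 28.9%, 21.4% and 27.4% lower. With DMSO, ruxolitinib and tofacitinib against day 0, skeletal muscle had 12, 4 and 14 of 20 tested genes higher, endothelium 10, 9 and 12 of 12, fibroblasts 6, 8 and 7 of 12, adipocytes 2, 1 and 3 of 10 and smooth muscle 2, 1 and 2 of 9, with 0 lower in each of these lists. The Langerhans cell and macrophage list had 2, 1 and 1 of 9 higher and 1 lower each time. For this list, adipocytes and smooth muscle the counts higher lie near the shares over all genes, and nothing is read from them. The mean level of the muscle list went from between 10.64 and 11.61 at day 0 to between 11.98 and 12.86 at day 5, and that of the endothelial list from between 2.54 and 4.46 to between 5.17 and 5.99. Melanocytes share their neural crest origin and genes such as Sox10 with Schwann cells, and 1, 7 and 7 of their 8 tested genes were higher than at day 0. For the mean of both inhibitors against DMSO, 5 of the 8 melanocyte genes were higher, beside 0.836% of all tested genes. Among them were Tyrp1 by 3.27 (adjusted p = 0.00341) and Dct by 2.76 (adjusted p = 0.0335). Mbp, S100b and Cntnap2 were not higher there. The Tyrp1 call was lost in 3 of 14 alternatives and the Dct call in 6 of 14, both without DMSO mouse 2 (2.88 and 1.93, adjusted p = 0.0921 and 0.369).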

How the data were processed

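RNA of 16 whole dorsal skin biopsies from 9 mice was amplified, labelled with biotin and hybridised to 1-colour arrays, 9 at day 0 and 7 at day 5. Each probe set has 1 deposited log2 expression value per array, and GCRMA is named in the submitters' processing notes (version not given in the sources used here). GCRMA subtracts a background modelled from probe sequence, so low values crowd near a floor and differences of low genes are uncertain. Array medians lay between 3.75 and 3.94, so the values were used as deposited, and the small number of arrays limits the precision.

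Of 45101 probe sets, 34958 carry 1 gene symbol in the platform annotation, 932 several, and 9211 are not listed; no symbol differed from the RefSeq table among 34754 matched by gene ID. Probe sets with a log2 value over 4 on at least 2 arrays were kept, a gene was read from its probe set of highest mean, and the fit over 12087 genes used limma 3.58.1 under R 4.3.3 (lmFit and eBayes, 1 mean per group, mouse as random block with consensus correlation 0.0982, 12 residual degrees of freedom, 2.86 prior). Values were described with Python 3.11.15, scipy 1.17.1 and pandas 2.3.3. The fit was checked on simulated data. Promoter sequences came from the RefSeq table. The labels pair the biopsies by mouse; the correlation of paired deviations was over 0.1 in 2 of 7 mice (range -0.183 to 0.178).

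The members, gene lists and tests were chosen with earlier results of these data known. Beside the members, the text names the 4 tested genes of highest mean in each list of nerve genes and the 5 nearest in profile to Cntnap2 and to the mean of Mbp and Pmp22; of the lists of other skin cells counts and mean levels are given. Further names were chosen after their values were seen: Mal, Drp2, Ugt8a, Ncmap, Gal3st1, Sox10, Ret, Gdnf, Cdh19, Scn7a, Shh, Nfasc, Kcna2, Tyrp1, Dct and the genes given by their highest value. Alternatives were a fixed mouse block, no block, only the groups compared, other filters, the mean of the kept probe sets, other probe sets, quantile normalization and leaving out each day-5 array.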

Additional observations from a re-analysis of the deposited data

Results flagged for a closer look

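Both values here concern Cntnap2 and were picked out because treatment groups at day 5 differed by the limma test of the difference itself. Cntnap2 was lower with ruxolitinib than with DMSO, the difference being -2.26 on the log2 scale (adjusted p = 0.0180), with both ruxolitinib arrays below both DMSO arrays. Against the mean of both inhibitors the difference from DMSO was -2.02 (adjusted p = 0.00823), with 5 of 5 inhibitor arrays below both DMSO arrays. Each rests on the same 2 DMSO mice, and the settings under which each call was lost stand beside it in the results. Cntnap2 was chosen with earlier results of these arrays known, so both values are a description and not independent support. The separation of the arrays comes from the same values and adds no evidence to the test. In the day-0 group no member had an array standing apart by Dixon's test (7 genes tested, critical value 0.493).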

How the results depend on the processing

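Over 295 alternative values of the members, 262 kept direction and side of the threshold, 22 no longer passed, 5 newly passed and 6 reversed; for the other named genes these were 850, 80, 32 and 3 of 965. The reversals were Mbp probe set 1425264_s_at (-1.33, -1.64 and -1.25 with DMSO, ruxolitinib and tofacitinib against day 0), Ngfr for inhibitors against DMSO when 1 array was left out (-0.34 to 0.76), S100b there with probe set 1419383_at (0.14), Sorl1 with DMSO as the mean of the kept probe sets (0.71), and, with only the day-0 arrays of mice 2, 4, 5, 6 and 7, Mal (-0.11) and Kcna1 (-0.27) with tofacitinib; for the probe sets and the fewer arrays the change of input is the construction, and otherwise the cause was not tested. With mouse as a fixed block (replicate block) 3701 genes passed with DMSO and 1324 with ruxolitinib against day 0, and 0 genes and 0 members between any day-5 groups. Fitting only the groups compared gave 3 genes for ruxolitinib against DMSO, 0 for each other day-5 comparison, and 0 members. The mean of kept probe sets gave 110 genes for ruxolitinib and 12 for tofacitinib against DMSO, and 5 for tofacitinib against ruxolitinib. Without the filter 11 genes passed for tofacitinib and 71 for both inhibitors against DMSO; a filter at 6 gave 11 for tofacitinib. Without a block 1 member passed for tofacitinib against DMSO. In likeness to Cntnap2, the 9 day-0 arrays alone put Mbp, Pmp22 and S100b at ranks 11936, 4242 and 9561, the 7 day-5 arrays alone put Mbp and S100b at 223 and 1468, and the mean of the kept probe sets put them at 1109 and 839.

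Leaving out 1 array, genes passing against day 0 ranged from 3469 to 6148 with DMSO, 2007 to 4159 with ruxolitinib and 3965 to 6344 with tofacitinib. Against DMSO they ranged from 1 to 16 with ruxolitinib, 0 to 121 with tofacitinib and 0 to 373 with both, and from 1 to 9 for tofacitinib against ruxolitinib. Members passing ranged from 3 to 5 with DMSO, 2 to 3 with ruxolitinib and stayed at 3 with tofacitinib against day 0; against DMSO they were 0 with ruxolitinib, 0 to 1 with tofacitinib and 0 to 1 with both. A group left with 1 array is assumed to vary like the others. Signal over background limits Mag, Gfra3 and the day-0 level of Cntnap2.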
